A study of Mus musculus with 48 samples.

Results

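A set of 10 genes that mark T cells and cytotoxic lymphocytes, Cd3e, Cd3g, Cd3d, Cd4, Cd8a, Cd8b1, Gzmb, Gzma, Nkg7 and Pdcd1, was measured in bulk mouse liver RNA. They were named by symbol, found by Ensembl identifier, and make up 10 of the 55416 genes counted in each liver. The 48 livers fell into 6 groups of 8, which were wild type (WT), heterozygous (HET) and homozygous (HOM) animals of a knock-in study (DN) and of a knockout study (KO). DN mice carried a W441R substitution in LXRα, the oxysterol-sensing nuclear receptor encoded by Nr1h3, which makes a dominant negative receptor, and KO mice lacked LXRα. All 48 animals, wild types included, ate a western diet for 8 weeks, so no group shows the genes on chow. The study's methods give the DN animals as male C57BL/6J mice from a CRISPR founder, aged 8 weeks at the start and 16 weeks when the livers were taken. The knockout was backcrossed to C57BL/6 for more than 10 generations and bred and studied at another site, so allele and study cannot be told apart. Both alleles are present in every cell of the body, T cells and macrophages included.

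T cells recognise antigen through a receptor whose signal is carried by the CD3 chains. The coreceptors CD4 and CD8 divide them into helper cells, which direct other immune cells, and cytotoxic cells, which kill targets by releasing granzymes from granules. NK cells use the same granules without an antigen receptor, and the healthy liver is rich in them. PD-1, encoded by Pdcd1, is an inhibitory receptor that appears on T cells after activation. In a whole-liver library most RNA comes from hepatocytes, and fewer cells of a type cannot be told apart from less RNA per cell.

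The genes lie on 6 chromosomes (GRCm39). Cd3e (ENSMUSG00000032093, chr9:44910037-44920925, minus strand), Cd3d (ENSMUSG00000032094, chr9:44893083-44899173, plus strand) and Cd3g (ENSMUSG00000002033, chr9:44880870-44891735, minus strand) are neighbours. An exon of the long non-coding gene Gm48719 overlaps Cd3e on the opposite strand, and the strand-specific counts used here separate them. Cd8a (ENSMUSG00000053977, chr6:71350411-71356157) and Cd8b1 (ENSMUSG00000053044, chr6:71299772-71315087) are also neighbours, both on the plus strand, with Cd4 elsewhere on the same chromosome (ENSMUSG00000023274, chr6:124841655-124874758, minus strand). Gzmb (ENSMUSG00000015437, chr14:56496295-56499717, minus strand) sits among related granzyme genes, and a read that aligned equally well to 2 genes was not counted. Gzma (ENSMUSG00000023132, chr13:113230355-113237524, minus strand), Nkg7 (ENSMUSG00000004612, chr7:43086497-43087678, plus strand) and Pdcd1 (ENSMUSG00000026285, chr1:93966027-93980312, minus strand) are overlapped by no other annotated gene.

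Promoter windows from RefSeq, 250 bases before to 50 after a gene's start, were found for 8 of the 10 genes (not for Cd4 or Cd8b1), and each matched GRCm39 exactly once although the table was made on GRCm38.p6. They were searched on both strands for TGTGGT, the core bound by RUNX factors, and CAGGAAG, bound by ETS factors, both families being known regulators of lymphocyte genes. TGTGGT was in 3 of 8 windows (Gzmb, Gzma and Nkg7) and in 16.8% of all 32851 windows. CAGGAAG was in 2 of 8 (Cd3e and Nkg7) and in 13.3% of all windows. The repeat bound by LXR, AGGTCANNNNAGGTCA, was in 0 of 8 windows and 0.0152% of all windows, and AGGTCA, the unit it holds at each end, was in 1 of 8, that of Pdcd1, and in 16.3% of all. The 100 bases just before the RefSeq start are shown for one CD3 chain and both granzymes, as examples of a receptor gene and of granule genes that hold one of these motifs, read 5′ to 3′ along the gene. Capitals mark TGTGGT in either orientation (it reads ACCACA when it lies on the other strand) and CAGGAAG (likewise read as CTTCCTG).
Cd3e, chr9:44920910-44921009, minus strand: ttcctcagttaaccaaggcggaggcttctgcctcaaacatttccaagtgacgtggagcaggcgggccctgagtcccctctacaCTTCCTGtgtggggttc
Gzmb, chr14:56499792-56499891, minus strand: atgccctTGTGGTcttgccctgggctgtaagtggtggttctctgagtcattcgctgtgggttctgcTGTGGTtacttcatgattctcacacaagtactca
Gzma, chr13:113237516-113237615, minus strand: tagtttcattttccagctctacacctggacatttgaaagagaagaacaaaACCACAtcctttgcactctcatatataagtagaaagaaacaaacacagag
Gzmb carries TGTGGT starting 93 and 34 bases before the start, and Gzma carries it on the other strand 50 bases before it. The CAGGAAG of Cd3e begins 17 bases before the start on the other strand. These are matches of letters, with no measurement of binding.

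Libraries held 5332897 to 16961379 reads on genes (median 15879971), and only KO:HET animal 3 and KO:HOM animal 17 were under 10000000. Nr1h3 was at 25.3 to 31.1 CPM in KO:HOM and at 81.5 to 108 CPM in KO:WT livers (CPM, reads of a gene scaled to the library's total), whereas DN:HOM livers, whose allele is still transcribed, held 68.5 to 77.4 CPM against 82.1 to 96.9 CPM in DN:WT. These DN ranges leave out the pair of libraries described next. With all 8 livers of each group they were 68.45 to 86.85 CPM in DN:HOM and 71.32 to 96.89 CPM in DN:WT, and overlapped. A pair of libraries stood apart from their labels. The library labelled DN:WT animal 10 had 1251 summed CPM of 8 macrophage and monocyte markers, against 93.2 to 161 CPM in the other 7 DN:WT livers, and the library labelled DN:HOM animal 12 had 97.4 CPM, against 772 to 1253 CPM in the other 7 DN:HOM livers. Neither had a counterpart in the source data of the FXR target genes, whereas each of the other 22 DN livers had one (the KO livers were not compared with it). The values below are from the 46 livers without this pair, and counts of called genes are also given with all 48.

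Reads of these genes were few. Cd3e and Cd4 had at least 1 read in 48 of 48 livers, Cd3g in 46, Gzmb, Gzma and Nkg7 in 45, Cd3d and Cd8a in 43, Cd8b1 in 38 and Pdcd1 in 28. A level of 10 reads was reached in 47 livers by Cd4, in 28 by Nkg7, in 25 by Cd3g, in 24 by Cd8a, in 23 by Cd3e, in 14 by Cd3d, in 12 by Cd8b1 and by Gzma, in 11 by Gzmb and in 3 by Pdcd1. The highest value of any gene in any liver was 142 reads, of Cd4 in DN:HET animal 22. A liver with 0 reads could still hold up to 3 reads' worth, which is 0.177 to 0.216 CPM except in the 2 shallow livers, where it is 0.558 and 0.563 CPM, so zeros here mean not detected at this depth. Among the 10 genes, 9 passed the filter on low counts and Pdcd1 did not. No DN:WT or KO:WT liver of the 46 reached 10 reads of Cd3d, Cd8b1 or Pdcd1, and of the other tested genes all but Cd4 reached that level in at most 3 of the 15 wild-type livers. All tested genes except Cd4 therefore passed the filter largely through livers of groups where they were higher, and counts over the 9 are given as description.

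Summed over the 10 genes, the level was higher in most homozygous than in wild-type livers of both studies and was most uneven in DN:HET livers. DN:WT livers held 2.71, 4.02 and 4.86 CPM (lowest, median and highest), DN:HET livers 3.81, 8.32 and 34.4 CPM and DN:HOM livers 4.78, 7.34 and 8.07 CPM. In the KO study the sums were 2.67, 3.34 and 8.27 CPM in WT, 3.62, 4.91 and 16.5 CPM in HET and 7.50, 13.7 and 34.2 CPM in HOM livers. Of the 7 DN:HOM livers, 6 were above every DN:WT liver, and animal 33, at 4.78 CPM, was below the highest DN:WT liver at 4.86 CPM. KO:HOM livers overlapped KO:WT only through KO:WT animal 5, at 8.27 CPM, and KO:HOM animal 22, at 7.50 CPM.

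Among the 9 genes tested, 8 rose in KO:HOM against KO:WT (all but Gzma), 5 rose in DN:HOM against DN:WT (Cd3g, Cd3d, Cd8a, Cd8b1 and Nkg7), 5 rose in DN:HET against DN:WT (Cd3e, Cd3g, Cd3d, Cd4 and Nkg7) and 0 passed in KO:HET against KO:WT. None fell in any of these comparisons. Of all 15711 genes tested, 11.5% were called higher and 7.87% lower in KO:HOM, the share against which 8 of 9 is to be read. In DN:HOM 29.1% of all genes were called higher and 30% lower, and 5 of 9 is to be read against that large share. DN:HET called 2.23% of genes higher and KO:HET 0.0127%. The median log2 fold change of the 9 genes was 2.48 in KO:HOM, 1.37 in DN:HOM, 1.82 in DN:HET and 1.17 in KO:HET, beside medians over all tested genes of -0.02, -0.01, -0.01 and -0.01. With all 48 livers, 8 were called in KO:HOM (background 8.79%), 1 in DN:HOM (Cd3d, background 23%), 2 in DN:HET (Cd3e and Cd3g, background 0.25%) and 0 in KO:HET (background 0.0128%). In KO:HET, 3 of the 9 had an unadjusted p under 0.05 in edgeR and DESeq2 called 0. Without the filter on low counts, with 32766 genes tested, only Cd3d and Cd8a remained called in DN:HOM, where 16.6% of all genes were called higher. The DN:HOM calls other than Cd3d also rested on single livers. Without DN:WT animal 7 or DN:HOM animal 18, 1 gene was called in DN:HOM (Cd3d), without DN:WT animal 13, 21 or 2 it was 2 genes, and without DN:WT animal 17 or 28 or DN:HOM animal 15, 34 or 9 it was 3 genes.

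**Figure D1:**
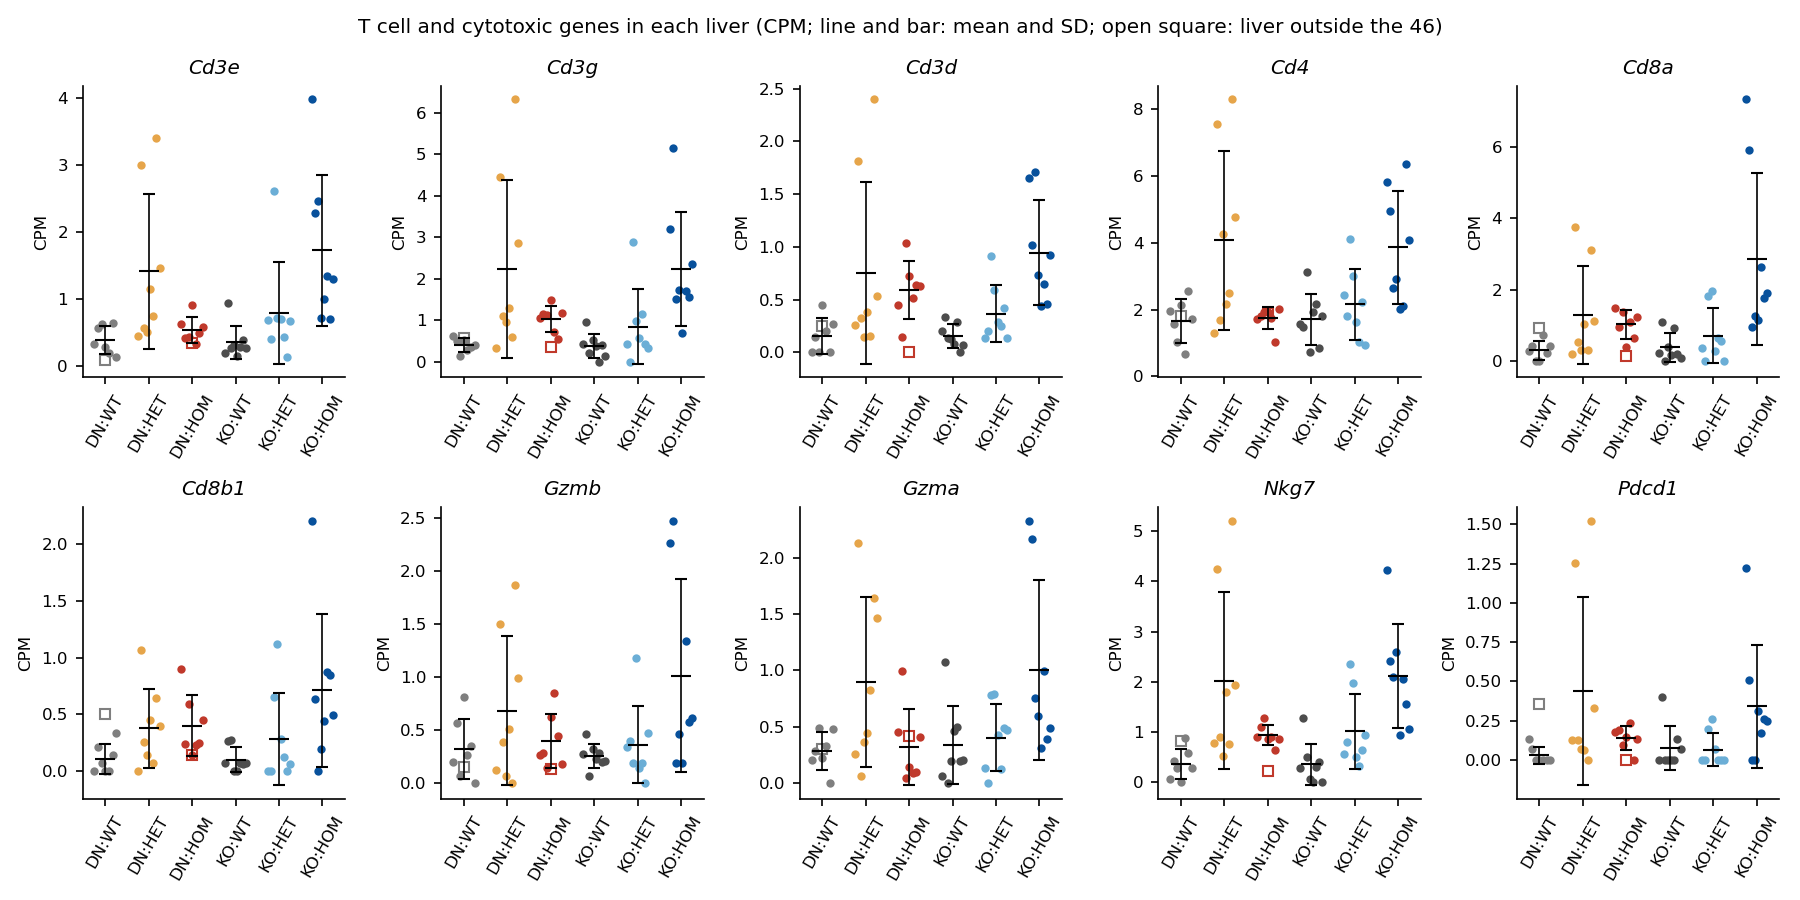
CPM of each gene (vertical axis, 1 panel a gene) in each of the 48 livers by group, with the mean and SD of the livers in the 46 as black lines and the 2 livers outside the 46 as open squares. DN:HET animals 4 and 22 and KO:HOM animals 8 and 11 lie at the top of many panels, and DN:HOM livers span 0.543 to 1.49 CPM of Cd3g and 0.0492 to 0.995 CPM of Gzma.

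The CD3 chains γ, δ and ε pair with the antigen receptor and carry its signal into the cell. Cd3d, the δ chain, was at 0, 0.141 and 0.444 CPM (lowest, median, highest) in DN:WT, at 0.147, 0.353 and 2.40 CPM in DN:HET and at 0.142, 0.632 and 1.03 CPM in DN:HOM livers. It was at 0, 0.135 and 0.336 CPM in KO:WT, at 0.135, 0.269 and 0.915 CPM in KO:HET and at 0.441, 0.827 and 1.71 CPM in KO:HOM livers. Every KO:HOM liver was above every KO:WT liver, whereas DN:HOM overlapped DN:WT through animal 15 alone. Cd3d was the single gene of the 10 whose homozygous and wild-type livers did not overlap in the KO study, where 2.18% of all genes were higher without overlap, and in the DN study 0 of the 10 were so, where 17.8% of all genes were. It rose by 1.93 ± 0.63 (log2 fold change ± SE, adjusted p = 0.00796) in DN:HOM and by 2.48 ± 0.59 (adjusted p = 0.0018) in KO:HOM. With all 48 livers the DN:HOM value was 1.62 ± 0.61 (adjusted p = 0.0267).

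Cd3g, the γ chain, was at 0.139, 0.409 and 0.607 CPM in DN:WT, at 0.323, 1.19 and 6.33 CPM in DN:HET and at 0.543, 1.13 and 1.49 CPM in DN:HOM livers. The KO livers held 0, 0.391 and 0.942 CPM in WT, 0, 0.495 and 2.88 CPM in HET and 0.693, 1.71 and 5.15 CPM in HOM. Of the 7 DN:HOM livers, animal 33 alone was below the highest DN:WT liver, animal 2. Cd3g rose by 1.37 ± 0.57 (adjusted p = 0.037) in DN:HOM, by 2.55 ± 0.53 (adjusted p = 0.000435) in KO:HOM and by 2.47 ± 0.55 (adjusted p = 0.0137) in DN:HET, and its DN:HOM value was 1.17 ± 0.53 with an adjusted p of 0.0649 in all 48 livers. Cd3e, the ε chain, was at 0.136, 0.337 and 0.643 CPM in DN:WT, at 0.452, 0.954 and 3.40 CPM in DN:HET and at 0.33, 0.493 and 0.912 CPM in DN:HOM livers, with 6 of 7 DN:HOM livers inside the wild-type range. In KO livers it was at 0.153, 0.283 and 0.942 CPM in WT, at 0.14, 0.685 and 2.61 CPM in HET and at 0.713, 1.32 and 3.98 CPM in HOM. Its log2 fold change was 0.46 ± 0.52 (adjusted p = 0.46) in DN:HOM, and it rose by 2.21 ± 0.47 (adjusted p = 0.000546) in KO:HOM and by 1.82 ± 0.48 (adjusted p = 0.0314) in DN:HET.

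Cd4, the helper coreceptor, had the most reads, 1889 over the 48 livers. It was at 0.667, 1.70 and 2.57 CPM in DN:WT, at 1.29, 3.38 and 8.32 CPM in DN:HET and at 1.04, 1.80 and 2.03 CPM in DN:HOM livers, so that all 7 DN:HOM livers lay inside the wild-type range. The KO values were 0.717, 1.69 and 3.14 CPM in WT, 0.943, 2.03 and 4.12 CPM in HET and 2.02, 3.50 and 6.35 CPM in HOM. Cd4 rose by 1.19 ± 0.34 (adjusted p = 0.00952) in KO:HOM and by 1.29 ± 0.35 (adjusted p = 0.0361) in DN:HET, and its value in DN:HOM was 0.08 ± 0.37 (adjusted p = 0.866). Cd8a and Cd8b1 encode the α and β chains of the cytotoxic coreceptor, and both passed the test in DN:HOM livers, while their difference from Cd4 was not tested. Cd8a was at 0, 0.27 and 0.734 CPM in DN:WT and at 0.384, 1.08 and 1.49 CPM in DN:HOM, with 5 of 7 DN:HOM livers above every DN:WT liver. In KO livers it was at 0, 0.203 and 1.08 CPM in WT and at 0.95, 1.83 and 7.35 CPM in HOM, the latter value in animal 8. It rose by 1.77 ± 0.72 (adjusted p = 0.0329) in DN:HOM and by 2.91 ± 0.64 (adjusted p = 0.000799) in KO:HOM, and the DN:HOM value over 48 livers was 1.25 ± 0.67 (adjusted p = 0.123).

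Cd8b1 had few reads, 269 in all 48 livers. DN:WT livers held 0, 0.0696 and 0.341 CPM of it and DN:HOM livers 0.144, 0.247 and 0.904 CPM, whereas KO:WT livers held 0, 0.0691 and 0.279 CPM and KO:HOM livers 0, 0.565 and 2.20 CPM. It rose by 1.82 ± 0.79 in DN:HOM (adjusted p = 0.0452) and by 2.76 ± 0.72 in KO:HOM (adjusted p = 0.00468), while with 48 livers the DN:HOM value was 1.12 ± 0.71 (adjusted p = 0.192). DESeq2 did not call Cd8b1 in DN:HOM (adjusted p = 0.0508). In heterozygotes neither CD8 chain passed the test, at 2.11 ± 0.71 (adjusted p = 0.107) for Cd8a and 1.75 ± 0.80 (adjusted p = 0.317) for Cd8b1 in DN:HET. Set against Cd4 in the same liver, Cd8a had a median of 13.8 reads per 100 Cd4 reads in DN:WT (range 0 to 110), 27.2 in DN:HET (6.9 to 49.6) and 61.9 in DN:HOM (20 to 86.8). The medians were 18.1 in KO:WT (0 to 72.7), 21.2 in KO:HET (0 to 65.2) and 51.6 in KO:HOM (27.6 to 126). These ratios overlap widely between groups and are given without a test.

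Granzymes A and B are proteases of cytotoxic granules, and NKG7 is a granule membrane protein of cytotoxic T and NK cells. Nkg7 was at 0, 0.279 and 0.867 CPM in DN:WT, at 0.515, 1.35 and 5.21 CPM in DN:HET and at 0.641, 0.895 and 1.28 CPM in DN:HOM livers. KO:WT livers held 0, 0.281 and 1.28 CPM of it, KO:HET livers 0.317, 0.718 and 2.35 CPM and KO:HOM livers 0.945, 2.07 and 4.22 CPM. The highest wild-type values, DN:WT animal 17 and KO:WT animal 5, lay inside the homozygous ranges. Nkg7 rose by 1.38 ± 0.59 (adjusted p = 0.0402) in DN:HOM, by 2.55 ± 0.54 (adjusted p = 0.00053) in KO:HOM and by 2.49 ± 0.56 (adjusted p = 0.0156) in DN:HET, and with all 48 livers it was at 1.004 ± 0.55 (adjusted p = 0.129) in DN:HOM. In KO:HET it had the smallest unadjusted p of the 9 genes, with a value of 1.51 ± 0.56 (adjusted p = 0.646).

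Neither granzyme passed the test in DN:HOM livers. Gzmb was at 0, 0.267 and 0.814 CPM in DN:WT and at 0.148, 0.284 and 0.848 CPM in DN:HOM, nearly the same range. In KO livers it was at 0.0697, 0.253 and 0.471 CPM in WT and at 0.189, 0.6 and 2.48 CPM in HOM, where animals 8 and 11 held 2.27 and 2.48 CPM and no other liver more than 1.34 CPM. Its log2 fold change was 0.32 ± 0.67 (adjusted p = 0.702) in DN:HOM and it rose by 1.99 ± 0.62 (adjusted p = 0.0171) in KO:HOM. Gzma was at 0, 0.283 and 0.487 CPM in DN:WT, at 0.0492, 0.144 and 0.995 CPM in DN:HOM, at 0, 0.204 and 1.08 CPM in KO:WT and at 0.315, 0.678 and 2.33 CPM in KO:HOM. The median of DN:HOM was below that of DN:WT, and animal 15 gave 21 of the 48 Gzma reads of the DN:HOM group. Gzma passed the test in neither comparison, with 0.17 ± 0.69 (adjusted p = 0.846) in DN:HOM and 1.57 ± 0.59 (adjusted p = 0.0554) in KO:HOM. In DN:HET the values were 1.63 ± 0.63 (adjusted p = 0.193) for Gzma and 1.10 ± 0.64 (adjusted p = 0.48) for Gzmb.

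Pdcd1 had 149 reads in all 48 livers and 0 reads in 20 of them. Over the 46 livers it had 3 reads in 7 DN:WT, 57 in 8 DN:HET, 21 in 7 DN:HOM, 9 in 8 KO:WT, 8 in 8 KO:HET and 44 in 8 KO:HOM livers. DN:HET animals 4 and 22 gave 46 of the 57 reads of their group, and KO:HOM animals 8 and 11 gave 28 of 44. Scaled for depth, the pooled level was 4.75 times higher in DN:HOM than in DN:WT (95% exact interval 1.42 to 24.9), 4.83 times higher in KO:HOM than in KO:WT (2.33 to 11.2) and 15.7 times higher in DN:HET than in DN:WT (5.11 to 78.4), and KO:HET was at 0.944 times KO:WT (0.317 to 2.76). These intervals cover counting error only, not the spread between animals. In the fit without a filter, which takes that spread in, the adjusted p was 0.165 in DN:HOM, 0.117 in KO:HOM and 0.0555 in DN:HET, and none passed. DESeq2, with its own filter, called Pdcd1 in DN:HET (adjusted p = 0.0358) and in no other comparison. The library labelled DN:WT animal 10, outside the 46, held 7 Pdcd1 reads, more than the other 7 DN:WT livers together, and with all 48 livers the fitted log2 fold change was 0.66 ± 0.91 (adjusted p = 0.678) in DN:HOM, 2.39 ± 0.85 (adjusted p = 0.438) in DN:HET and 2.09 ± 0.87 (adjusted p = 0.175) in KO:HOM, beside 1.995, 3.58 and 2.10 in the 46.

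**Figure D2:**
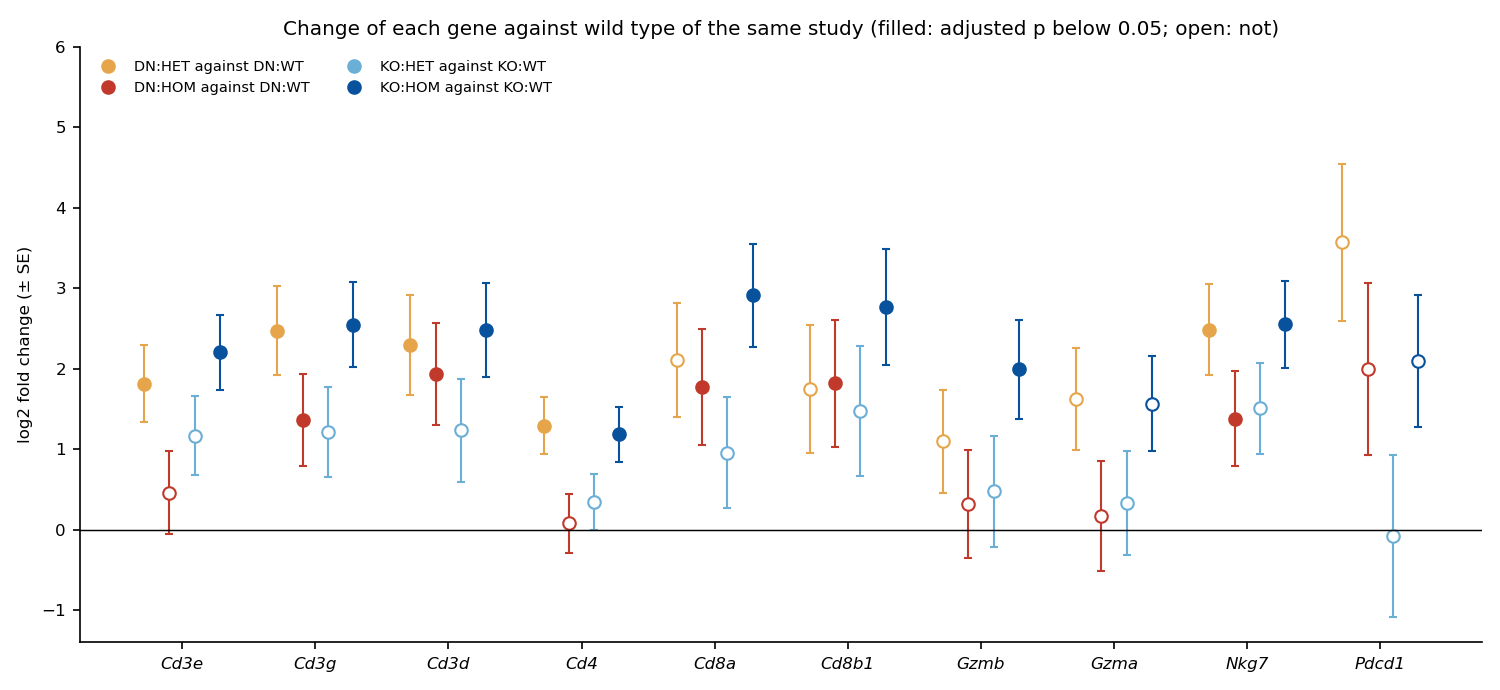
Log2 fold change of each gene against the wild types of its own study (vertical axis, bars are SE) in the 46 livers, with filled points at an adjusted p below 0.05; Pdcd1 is from the fit without a low-count filter. KO:HOM has the highest values of most genes, and Cd3e, Cd4, Gzmb and Gzma in DN:HOM lie near 0 (0.46, 0.08, 0.32 and 0.17).

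Whether the homozygous change differed between the studies was tested as the difference of the 2 log2 fold changes, DN minus KO. All 9 differences were below 0, from -1.75 to -0.55, and 0 passed the adjusted threshold, where 34.7% of all genes did, in either direction, and 10.5% with all 48 livers. The nearest were Cd3e, at -1.75 ± 0.71 (adjusted p = 0.0502), and Cd4, at -1.11 ± 0.50 (adjusted p = 0.0797), and these 2 had an unadjusted p under 0.05. DESeq2 called 1 of the 9, Cd3e, with an adjusted p of 0.0443. Leaving out 1 liver gave 2 calls without DN:WT animal 17 (Cd3e and Cd4), and 1 call without DN:WT animal 13 or 28, DN:HOM animal 19, KO:HOM animal 20, 22, 26 or 27 or KO:WT animal 5 (Cd3e in each) or KO:WT animal 14 (Cd4). The smallest difference was that of Cd3d, -0.55 ± 0.93 (adjusted p = 0.69). A weaker rise in DN:HOM than in KO:HOM was therefore not shown for any of the genes by edgeR, and the SEs of 0.50 to 1.18 leave room for large differences in most.

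Much of the DN:HET change lay in a pair of animals. Animals 4 and 22 held 1080 of the group's 1794 reads of the 10 genes (60.2%), from 52% of its Cd4 reads to 80.7% of its Pdcd1 reads, and for 10 of 10 genes both were above every other DN:HET liver. Their summed levels were 30.8 and 34.4 CPM, then animal 29 followed at 15.9 CPM and animal 16 at 9.29 CPM, and the lowest, animal 1, was at 3.81 CPM. Without animals 4 and 22, 0 of the 9 genes passed in DN:HET (0.0126% of all genes were called higher), 4 had an unadjusted p under 0.05, and the log2 fold changes ran from 0.15 (Gzmb) to 1.63 (Nkg7), with Cd3g at 1.56 ± 0.53 (adjusted p = 0.892). Leaving out only animal 4 or only animal 22 also left 0 called, and the wild types mattered too, with 2 called without DN:WT animal 28 or 2 and 3 without DN:WT animal 17, 5 or 7. In KO:HOM, animals 8 and 11 held 49% of the reads of the 10 genes, and both were above the rest for 5 of 10 genes (Cd3g, Cd8a, Gzmb, Gzma and Pdcd1). Without them 6 genes still passed in KO:HOM (Cd3e, Cd3g, Cd3d, Cd8a, Cd8b1 and Nkg7), where 8.21% of all genes were called higher. Cd4 was then at 0.99 ± 0.36 (adjusted p = 0.0634) and Gzmb at 1.18 ± 0.65 (adjusted p = 0.247). In KO:HET, animals 4 and 6 held 55.5% of the group's reads, at 16.5 and 12.6 summed CPM against 3.62 to 5.09 CPM in the other 6 livers.

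The DN:HET and KO:HOM livers with the most reads of the 10 genes also had high macrophage and monocyte markers. The sum of 8 markers (Adgre1, Cd68, Csf1r, Lyz2, Mertk, Ly6c2, Ccr2 and Itgam) was 814 and 858 CPM in DN:HET animals 4 and 22 and 97.5 to 312 CPM in the other 6 DN:HET livers. It was 973 and 719 CPM in KO:HOM animals 8 and 11 and 226 to 377 CPM in the other 6. DN:HOM livers had sums as high, 772 to 1253 CPM, with a much lower level of the 10 genes. In DN:HOM most of that sum was a single gene, Lyz2, at 833 ± 177 CPM against 43.2 ± 12.02 CPM in DN:WT (SD, n = 7 each) and 269 ± 194 CPM in KO:HOM (SD, n = 8). By group means, Lyz2 was also the larger part of the sum in KO:HOM. Csf1r, a receptor that marks macrophages, was at 71.2 ± 7.82 CPM in DN:HOM, close to its 80.7 ± 37.4 CPM in KO:HOM and 69.4 ± 47.9 CPM in DN:HET, so the place of DN:HOM beside the other groups depends on the marker. The part of macrophages in the level of the 10 genes was not tested.

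**Figure D3:**
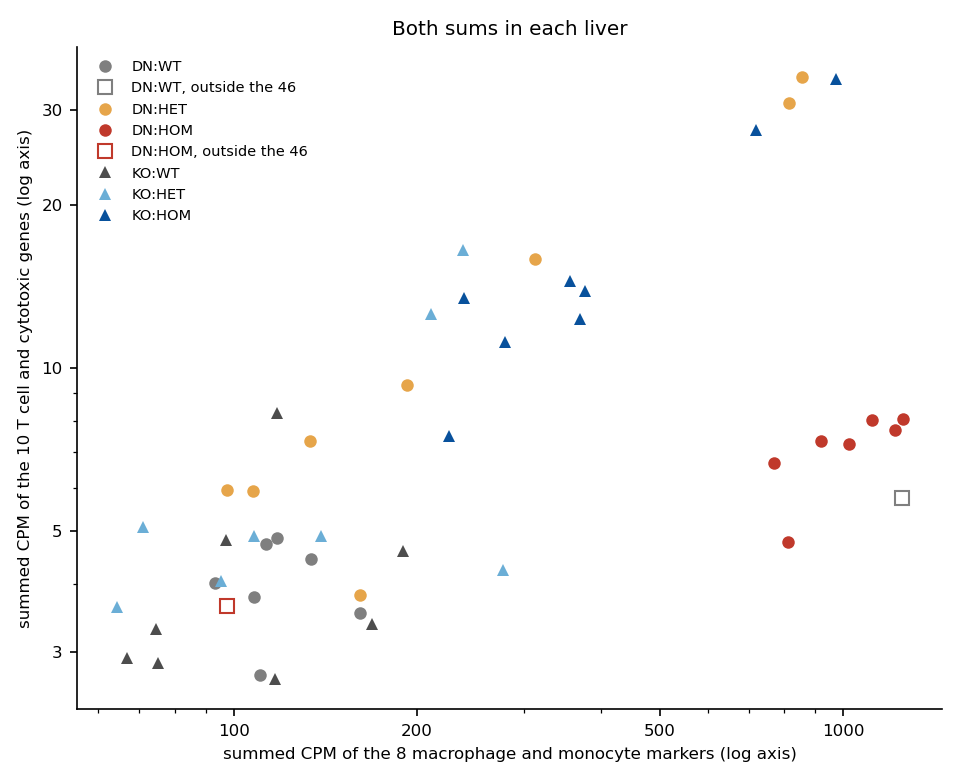
Summed CPM of the 10 genes (vertical, log axis) against summed CPM of 8 macrophage and monocyte markers (horizontal, log axis), 1 point a liver, circles for DN and triangles for KO, open squares for the 2 livers outside the 46. DN:HET animals 4 and 22 and KO:HOM animals 8 and 11 lie at the upper right, and the 7 DN:HOM livers lie at the lower right, with 772 to 1253 CPM of the markers, mostly Lyz2, and 4.78 to 8.07 CPM of the 10 genes.

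Of 17 other genes of the T cell receptor and its first signalling steps, 15 were tested (Trdc and Ubash3a were too low), and 12 rose and 0 fell in KO:HOM, 5 rose and 1 fell in DN:HOM, 6 rose in DN:HET and 0 changed in KO:HET. The 5 of 15 in DN:HOM is close to the 29.1% of all genes called higher there, while in KO:HOM 11.5% and in DN:HET 2.23% of all genes were. With all 48 livers 12 rose in KO:HOM (8.79% of all genes), 2 rose and 1 fell in DN:HOM (23% of all genes called higher) and 1 rose in DN:HET (0.25%). Their median log2 fold changes were 2.06 in KO:HOM, 0.92 in DN:HOM, 1.51 in DN:HET and 0.77 in KO:HET, and with all 48 livers 2.06, 0.60, 1.36 and 0.77. Lcp2, an adaptor of T cells and of myeloid cells, rose by 1.91 ± 0.36 (adjusted p = 0.00014) in KO:HOM and by 0.86 ± 0.37 (adjusted p = 0.0429) in DN:HOM. Cd2, an adhesion receptor, rose by 2.68 ± 0.53 in KO:HOM (adjusted p = 0.00025), and so did the kinase Lck, by 2.27 ± 0.47 (adjusted p = 0.000411). In DN:HOM neither passed, with Lck at 0.67 ± 0.48 (adjusted p = 0.234). Zap70, the kinase recruited to CD3, went the other way in DN:HOM and fell by 2.07 on the log2 scale (SE 0.20, adjusted p = 3.92e-12), from 8.30 ± 1.32 to 1.96 ± 0.782 CPM (SD, n = 7 each). Zap70 had 6265 reads in the 48 livers, more than 3 times the reads of any of the 10 genes.

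The cytotoxic and NK cell list was poorly covered, with 7 of 18 genes tested. Perforin (Prf1), Ifng, Gzmk, Gzmm, Eomes and Tbx21 were among the 11 too low to test. Of the 7, 6 rose in KO:HOM, 3 in DN:HOM (Klrd1, Ncr1 and Ctsw), 3 in DN:HET and 0 in KO:HET, beside 11.5%, 29.1%, 2.23% and 0.0127% of all genes called higher in the same comparisons. Ccl5, a chemokine of activated T and NK cells, was at 15.3 ± 16.8 CPM in KO:HOM against 1.08 ± 0.573 CPM in KO:WT (SD, n = 8 each), and rose by 3.82 ± 0.72 (adjusted p = 0.00014). Cst7, a cystatin of cytotoxic granules, rose by 4.18 ± 0.91 (adjusted p = 0.000713) from 0.0591 CPM in KO:WT. The granule cathepsin Ctsw rose by 2.43 ± 0.46 in KO:HOM (adjusted p = 0.000152) and by 1.24 ± 0.45 in DN:HOM (adjusted p = 0.015). Klrd1, the NK receptor chain CD94, rose by 2.36 ± 0.48 (adjusted p = 0.000371) and by 1.61 ± 0.44 (adjusted p = 0.00148) in the same comparisons. With all 48 livers, 0 of these genes were called in DN:HOM, 6 in KO:HOM and 1 in DN:HET. The shares of all genes called higher were then 23%, 8.79% and 0.25%. Ncr1 failed the filter on low counts in that fit and was not tested.

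Of 8 checkpoint and costimulatory genes tested, other than Pdcd1, 6 rose and 0 fell in KO:HOM, where 11.5% of all genes were called higher. In DN:HOM 4 rose and 2 fell, where 29.1% of all genes were called higher and 30% lower. With all 48 livers 4 rose in KO:HOM (8.79% of all genes), and 2 rose and 2 fell in DN:HOM (23% of all genes called higher). Tigit and Pdcd1lg2 then no longer passed the filter on low counts and were not tested. Cd274, encoding the PD-1 ligand PD-L1, rose by 2.94 ± 0.48 in KO:HOM (adjusted p = 2.76e-05), from 3.12 ± 1.15 to 23.9 ± 13.4 CPM (SD, n = 8 each). Pdcd1lg2, the other PD-1 ligand, rose by 4.52 ± 0.99 (adjusted p = 0.000776) in KO:HOM and by 1.89 ± 0.84 (adjusted p = 0.0499) in DN:HOM, from wild-type means of 0.018 and 0.0868 CPM. Tigit rose by 4.25 ± 0.83 in KO:HOM (adjusted p = 0.000211) and by 3.005 ± 1.02 in DN:HOM (adjusted p = 0.0106), and Havcr2, also found on myeloid cells, rose by 2.09 ± 0.47 (adjusted p = 0.0011) and by 2.82 ± 0.49 (adjusted p = 4.2e-06). Icos, a costimulator of helper cells, fell by 1.46 on the log2 scale in DN:HOM (adjusted p = 0.00124), and Tox, a regulator of T cell fate, fell by 0.82 (adjusted p = 0.00134). The ligands Cd274 and Pdcd1lg2 are known from myeloid cells as well as T cells, so this list is not one of T cells alone.

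Of 9 tested genes of helper, regulatory and memory T cells, 7 rose in KO:HOM (11.5% of all genes), 4 rose and 1 fell in DN:HOM (29.1% and 30% of all genes) and 5 rose in DN:HET (2.23% of all genes). In the 48 livers 7 rose in KO:HOM (8.79% of all genes), 3 rose and 1 fell in DN:HOM (23% of all genes called higher) and 2 rose in DN:HET (0.25%). Il7r, the interleukin 7 receptor, rose by 4.16 ± 0.42 (adjusted p = 2.53e-11) in DN:HOM and by 2.54 ± 0.40 (adjusted p = 1.35e-05) in KO:HOM. Its DN:HOM value with all 48 livers was 1.84 (adjusted p = 0.00697). Il2rb, the shared receptor chain for interleukins 2 and 15, rose by 2.29 ± 0.37 (adjusted p = 1.9e-05) in KO:HOM and was at 0.65 in DN:HOM (adjusted p = 0.146). The chemokine receptors Cxcr3 and Cxcr6 rose by 2.63 ± 0.49 and 2.31 ± 0.52 in KO:HOM, and Cxcr6 rose by 2.03 ± 0.58 in DN:HOM (adjusted p = 0.00259).

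Markers of other cells were also counted, against the 29.1% of all genes called higher and 30% lower in DN:HOM and the 11.5% and 7.87% in KO:HOM. In DN:HOM and KO:HOM respectively, 4 and 7 of 8 dendritic cell markers rose, 6 and 7 of 8 macrophage and monocyte markers, 5 and 3 of 5 neutrophil markers and 2 and 1 of 6 B cell and plasma cell markers, while 6 and 5 of 6 hepatocyte markers fell. Over all 48 livers these counts were 4 and 3 for dendritic cells, 5 and 6 for macrophages and monocytes, 4 and 1 for neutrophils, 1 and 1 for B and plasma cells, and 5 and 2 falling for hepatocytes. Of all genes, 23% were then called higher in DN:HOM and 8.79% in KO:HOM. The median log2 fold change of the neutrophil list was 4.31 in DN:HOM and 1.99 in KO:HOM, and that of the macrophage list 1.81 and 1.995. With all 48 livers the DN:HOM medians were smaller, at 2.18 for neutrophils and 1.18 for macrophages. S100a8, one of the neutrophil markers, rose by 4.25 ± 0.49 (adjusted p = 7.19e-10) in DN:HOM and by 2.13 ± 0.52 (adjusted p = 0.00235) in KO:HOM. Lyz2, the lysozyme of myeloid cells, rose by 4.28 ± 0.57 (adjusted p = 1.96e-08) and by 2.57 ± 0.50 (adjusted p = 0.000201). Itgax, encoding CD11c of dendritic cells and macrophages, rose by 4.65 ± 0.50 (adjusted p = 9.95e-11) and by 3.29 ± 0.45 (adjusted p = 1.73e-06). Its DN:HOM value with all 48 livers was 2.35 (adjusted p = 0.00234). Among B cell genes Cd22 rose in both, by 1.41 ± 0.41 (adjusted p = 0.00329) and 1.38 ± 0.42 (adjusted p = 0.0155). The B cell and plasma cell list as a whole did not rise, with 1 marker called lower in DN:HOM. Its median log2 fold change was -0.32 in DN:HOM and 0.07 in KO:HOM. Apoa1, an apolipoprotein made by hepatocytes, fell by 0.60 in DN:HOM (adjusted p = 0.000134) and by 0.63 in KO:HOM (adjusted p = 0.000212). In DN:HET, where 2.23% of all genes were called higher, 4 macrophage, 3 dendritic and 1 neutrophil marker rose. There 0 of the B cell and hepatocyte markers changed, and in KO:HET 0 markers of any list passed. With all 48 livers 0 of the macrophage, dendritic and neutrophil markers were called in DN:HET, where 0.25% of all genes were called higher. The neutrophil median in DN:HET then turned from 1.25 to -0.73. The part of these cells in the values of the 10 genes was not tested.

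**Figure D4:**
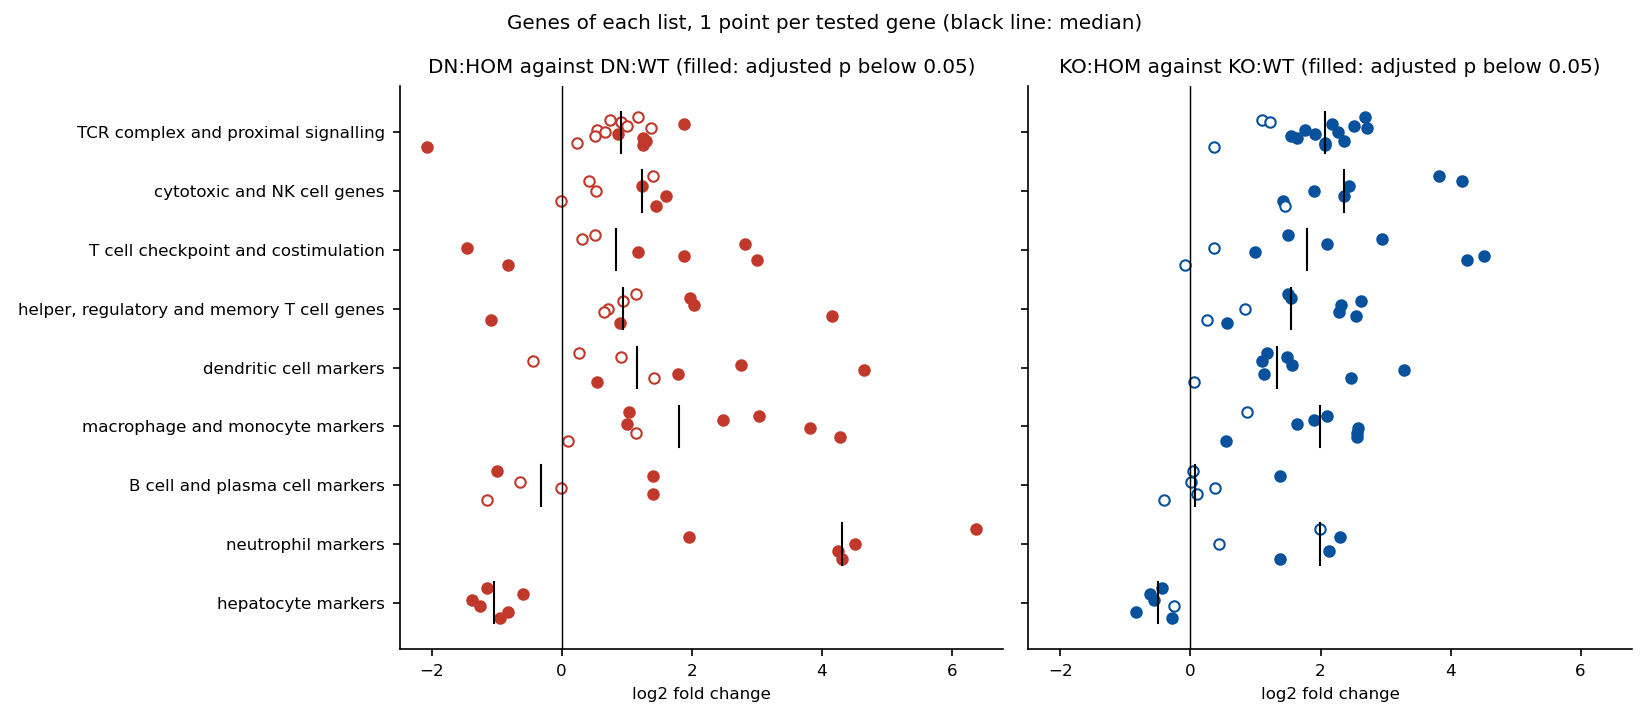
Log2 fold change (horizontal axis) of each tested gene of 9 lists in DN:HOM (left) and KO:HOM (right) against wild type, filled where the adjusted p is below 0.05, with the median of each list as a black line. The T cell receptor list has a median of 0.92 in DN:HOM and 2.06 in KO:HOM, and the neutrophil list 4.31 and 1.99.

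Per kilobase of exon, so that genes can be set beside each other, Nkg7 had the highest level in DN:WT (0.386 CPM per kilobase), DN:HET (2.19), DN:HOM (1.01), KO:HET (1.1) and KO:HOM (2.3), and was level with Cd4 in KO:WT, at 0.38 for each. In DN:WT livers Cd4 (0.37) was next, then Gzmb (0.226), Gzma (0.185) and Cd3g (0.122), and Pdcd1 was lowest at 0.0149. In DN:HOM livers the order below Nkg7 was Cd4 (0.387), Cd3g (0.315), Cd8a (0.281), Gzmb (0.279) and Cd3d (0.229). In KO:HOM livers Cd4 (0.859), Cd8a (0.787), Gzmb (0.708), Cd3g (0.682) and Gzma (0.65) followed it. Apart from the step from Nkg7 to Cd4 in DN:HOM and KO:HOM, each of these steps was smaller than the larger SD between livers of the pair of genes.

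The genes with the pattern most like the CD3 chains were found over the 46 livers by the mean absolute difference between a gene's centred log2 CPM and that of summed Cd3e, Cd3g and Cd3d. They were Ms4a4b (0.366), Inpp4b (0.4), Ptpn22 (0.411), Gimap3 (0.423) and Il2rb (0.425), against a median of 0.949 over the 15702 genes compared. Their log2 fold changes in KO:HOM ran from 1.67 (Gimap3) to 2.29 (Il2rb), and in DN:HOM from 0.62 (Ms4a4b) to 1.05 (Ptpn22), where Inpp4b (adjusted p = 0.0191) and Ptpn22 (adjusted p = 0.0323) passed. This likeness follows depth and group as well as animal, and is a description of these livers.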

How the data were processed

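The mRNA of 48 livers was sequenced as stranded libraries. The authors counted reads per gene with STAR 2.5.0a on GRCm39 and deposited raw counts, 1 file a liver, with no replicates pooled. The counts of the library's strand were used, and the 4 lines naming no gene (24.02% to 34.99% of reads) were left out of library sizes and tests. Depth was 5332897 to 16961379 reads on genes. Gene positions came from a GENCODE annotation of GRCm39 that matched 54749 of the 55416 identifiers.

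From these counts, log2 fold changes, their SE and p-values were computed with edgeR 4.0.16 (R 4.3.3): filterByExpr, TMM scaling, 1 mean for each of the 6 groups, the quasi-likelihood test and Benjamini-Hochberg adjustment over all 15711 genes tested, called at an adjusted p below 0.05 (two-sided). The SE is the log2 fold change divided by the square root of the test's F. The fit held 46 livers, without DN:WT animal 10 and DN:HOM animal 12, the pair with no counterpart in the study's source data for its FXR target genes, and was repeated with all 48. CPM used TMM library sizes. Pdcd1 failed the filter, and its values came from a fit without it. The procedure was tested on simulated counts. Alternatives were DESeq2 1.42.0, other scalings, filters, thresholds and strands, other sets of livers, and each liver left out in turn. The last, and the removal of the 2 DN:HET and 2 KO:HOM livers with the most reads of the genes, were chosen after seeing the data. Intervals and limits for 0 reads cover counting error only. Each library is a different animal by its label, so p-values measure the spread between these animals. Promoter windows came from RefSeq (table built on GRCm38.p6) and were matched to GRCm39.

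All 10 genes are named in every comparison. From each list of other genes up to 4 are named, those with the smallest adjusted p in KO:HOM, plus any called against the direction of most of its list. Some genes of these lists are counted but not reported here by name. For genes of like pattern, levels are log2 CPM with a prior count of 2. The genes and lists were chosen with earlier results of these data known, so their changes are no independent support.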

Additional observations from a re-analysis of the deposited data

Results flagged for a closer look

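In 11 of the 60 gene and group combinations, 1 liver lay apart from the other livers of its group by Dixon's test at the 95% level, a test that picks out about 1 in 20 groups by chance. KO:WT animal 5 was high for Cd3e (0.942 CPM), Gzma (1.08 CPM), Nkg7 (1.28 CPM) and Pdcd1 (0.404 CPM). KO:HOM animal 8 was high for Cd8b1 (2.20 CPM) and Pdcd1 (1.23 CPM). KO:HET animal 4 was high for Cd3e (2.61 CPM) and Cd3g (2.88 CPM), and KO:HET animal 6 for Gzmb (1.18 CPM). DN:HOM animal 15 was high for Gzma (0.995 CPM), and DN:HOM animal 33 was low for Cd4 (1.04 CPM).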

How the results depend on the processing

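The counts of called genes were the same with upper-quartile scaling, with unstranded counts and without the 2 shallow livers. In DN:HOM, where 5 genes were called, 1 was called at an adjusted p below 0.01, 1 with all 48 livers, 2 without a low-count filter, 3 with a mean of at least 1 CPM, 3 with the compared groups fitted alone and 1 to 5 with 1 liver left out. DESeq2 called 4 in DN:HOM, as did the fit of each study alone, and Cd8b1 was lost in both. In KO:HOM, where 8 were called, 4 were called with a mean of at least 1 CPM, 5 with each study fitted alone, 5 with the compared groups alone and 7 to 9 with 1 liver left out (the ninth was Gzma). In DN:HET, where 5 were called, 0 were called at an adjusted p below 0.01, 2 with all 48 livers, 3 with a mean of at least 1 CPM, 3 with each study alone, 0 with the compared groups alone, 0 without animals 4 and 22 (an alternative chosen after seeing the data) and 0 to 5 with 1 liver left out. In KO:HET it was 0 in every setting run. For the difference of the homozygous effects the count of 0 became 1 with DESeq2, 2 without DN:HET animals 4 and 22 and 0 to 2 with 1 liver left out. Where a fit held fewer groups or asked for 1 CPM, some of these genes failed the filter and were not tested (Cd3d, Cd8b1 and Gzmb in KO:HOM with each study alone), and for the other changes the cause was not tested. The log2 fold change of Pdcd1 in the difference of the homozygous effects became 0.0662 with DESeq2. With 1 liver left out, the log2 fold change of Cd4 in DN:HOM against DN:WT ran from -0.0748 to 0.20, the log2 fold change of Gzma in DN:HOM against DN:WT from -0.42 to 0.35 and the log2 fold change of Gzmb in KO:HET against KO:WT from -0.12 to 0.68, none of which passed the test. Scaling by library size alone moved the median of all genes to 0.418 in DN:HOM and 0.0934 in KO:HOM, with the same 5 genes called in DN:HOM and Gzma added in KO:HOM. No paired analysis was possible because the livers are different animals and no label gives a number that pairs them across genotypes. Low read counts limit all of these values, and for Pdcd1 and Cd8b1 most.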
